A study of Mus musculus with 2 samples.

Results

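The 10 genes described here build, load or release the dense-core granules of hormone-secreting cells: Chga, Chgb, Scgn, Scg2, Scg3, Scg5, Pcsk1, Pcsk1n, Cpe and Cadps. They were chosen by name from the 22253 genes of the RNA matrix, and all 10 had counts. The cells came from organoids, which are epithelial cultures grown from stem cells, of the mouse distal small intestine. There were 3 Etv1 mutant cultures and 2 control cultures. All 5 cultures, mutant and control, were Neurog3-RFP;Gcg-Venus, so that a red reporter marks endocrine progenitors and a yellow one the cells that make proglucagon. Cells were sorted and tagged with a hashtag oligo for each culture before pooling into 1 single-cell run. The labels give neither the nature of the Etv1 mutation nor the sort gate, the age of the donor mice or the passage of the cultures.

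Enteroendocrine cells are the hormone-secreting cells of the gut epithelium. They store peptide hormones and serotonin in dense-core granules and release them when calcium rises in the cell. Granins such as chromogranin A and B and secretogranin II are acidic proteins that gather in the forming granule and help to pack it. Prohormone convertases cut hormone precursors inside it, carboxypeptidase E trims the cut ends, and small partner proteins hold the convertases in check. Priming factors such as CAPS then prepare the granule to fuse with the cell membrane.

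After filtering, 1432 cells belonged to a single culture: 282, 281 and 197 in the mutant cultures and 323 and 349 in the control cultures. Totals lay between 4193197 and 7254380 UMIs (unique molecular identifiers, each counting 1 captured RNA molecule) per culture, and medians between 20842 and 24126 UMIs per cell. Etv1 itself had 20, 20 and 13 counts in the mutant cultures and 45 and 44 in the control cultures, yet within enteroendocrine-like cells its level was 167, 205 and 146 counts per 1000000 UMIs (CPM) in mutant cultures against 205 and 271 CPM in control cultures, and the groups overlapped there. These counts check the labels no further, since the mutation is not stated.

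Cells were clustered with the 10 genes and 50 further granule and exocytosis genes left out, so that they could not draw the clusters. A cluster of 54 cells was called enteroendocrine-like because 8 of 20 enteroendocrine markers outside the 10 genes stood out in it, with Sct, Neurod1, Neurog3 and Insm1 among its top 10 genes. Chgb, Chga, Cpe, Pcsk1n and Scgn were nonetheless among its top 10 genes by fold. The Paneth cell gene Defa34 was there too. The class held 7, 9 and 8 cells in the mutant cultures and 16 and 14 cells in the control cultures. It made up 3.77% of cells and 2.08% of counts, so every value within it rests on few cells. Genes marking tuft, immune, mesenchymal, endothelial and neuronal or glial cells summed to at most 55.5 CPM per list and culture in the class. Enterocyte markers summed to 5084, 6356 and 2294 CPM in mutant cultures and to 1309 and 2780 CPM in control cultures. Goblet markers summed to 2527, 685 and 1709 CPM in mutant cultures and to 971 and 863 CPM in control cultures, and Paneth markers to 2474, 8129 and 3119 CPM in mutant cultures and to 3662 and 5949 CPM in control cultures. The part of these other-cell transcripts in the differences given further on was not tested.

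The counts of the granule genes lay mostly in this small class. The class held 87.9% to 97.9% of the counts of 9 of the 10 genes, and 57.2% of those of Pcsk1. Over the 11837 genes with at least 20 counts the median share was 2.56%, and 1.02% of genes had over 50% of their counts there. Chga, Chgb, Scgn, Scg3, Pcsk1, Cpe and Cadps were highest in this class in all 5 cultures, whichever of the 4 clusterings was used. Scg2, Scg5 and Pcsk1n each had no count in the class in 1 mutant culture.

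**Figure D1:**
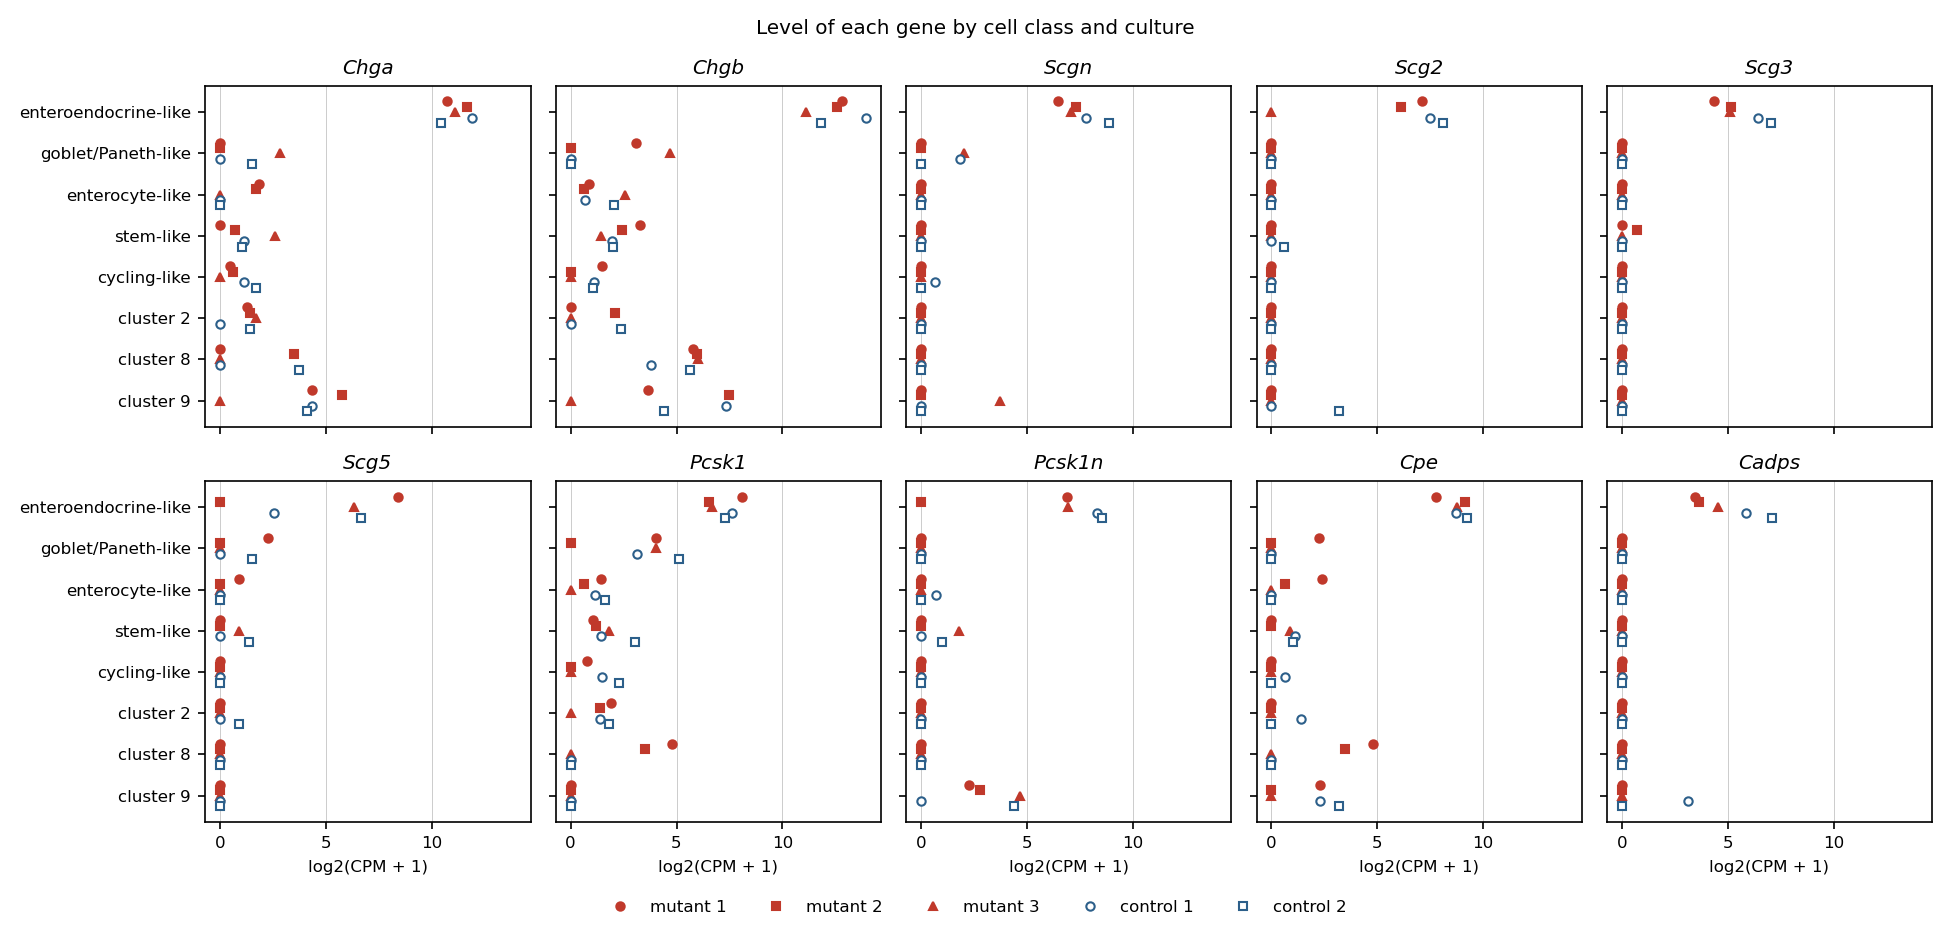
Level of each of the 10 genes as log2(CPM + 1) of the counts summed over the cells of each class in each culture, with filled red symbols for the 3 mutant cultures and open blue symbols for the 2 control cultures. The enteroendocrine-like row lies to the right of the other classes for every gene, except in cultures where Scg2, Scg5 or Pcsk1n had no count.

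Of the granins, Chga encodes chromogranin A, the general marker of endocrine granules, and lies on chromosome 12 (mm10, 102554969 to 102565028, plus strand). Its level in enteroendocrine-like cells averaged 2422 ± 1018 CPM over the 5 cultures (SD, n = 5), against 1.56 ± 1.97 CPM in stem-like cells. Chgb, for chromogranin B, on chromosome 2 (132781278 to 132795079, plus strand), averaged 6986 ± 5303 CPM in enteroendocrine-like cells and 4.16 ± 2.76 CPM in stem-like cells (SD, n = 5). A UMI of Chga was found in 45 of 54 enteroendocrine-like cells (83.3%) and in 10 of 351 stem-like cells (2.85%). For Chgb these were 40 of 54 cells (74.1%) and 20 of 351 cells (5.70%). Median depth was 9723.5 UMIs in enteroendocrine-like cells and 20926 UMIs in stem-like cells, so the deeper cells were the ones with few UMIs of either gene. The stem-like shares are given as the level in another cell type, and free RNA in the droplets was not measured. Of the 20 stem-like cells with Chgb, 2 had at least 3 of its UMIs, and the highest had 6.

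Scg2 encodes secretogranin II, the precursor of the peptide secretoneurin, and lies on chromosome 1 (79434669 to 79440120, minus strand). It averaged 132 ± 104 CPM in enteroendocrine-like cells over the 5 cultures (SD, n = 5), with 102 of its 105 counts there. Scg3, for secretogranin III, a granin that binds chromogranin A and membrane cholesterol, lies on chromosome 9 (75643189 to 75684056, minus strand). It averaged 60.5 ± 46.0 CPM in the class, with 47 of 48 counts there. Neither gene had a count in goblet/Paneth-like cells, where a count of 0 allows up to 1.76 CPM, nor in enterocyte-like cells, where it allows up to 0.467 CPM. Stem-like cells held 1 count of each.

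Processing genes were more spread. Pcsk1, for prohormone convertase 1/3, on chromosome 13 (75089826 to 75134861, plus strand), averaged 163 ± 75.3 CPM in enteroendocrine-like cells and 14.5 ± 12.6 CPM in goblet/Paneth-like cells (SD, n = 5 cultures). In that second class 18 of 82 cells (22%) had a Pcsk1 UMI, against 29 of 54 enteroendocrine-like cells (53.7%) and 22 of 351 stem-like cells (6.27%), at a median depth of 18289 UMIs. No other of the 10 genes had a UMI in more than 4 goblet/Paneth-like cells. Those cells carried markers of both secretory types, 6 of 8 goblet and 9 of 10 Paneth markers, and 1 of 20 enteroendocrine markers.

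Pcsk1n, on chromosome X (7919822 to 7924410, plus strand), encodes proSAAS, a granin-like inhibitor of prohormone convertase 1/3. It averaged 186 ± 155 CPM in enteroendocrine-like cells (SD, n = 5 cultures) and had a UMI in 19 of 54 of them. Scg5, on chromosome 2 (113776362 to 113829121, minus strand), encodes 7B2, the partner of prohormone convertase 2. It averaged 103 ± 136 CPM and had a UMI in 10 of 54 cells. The gene of the convertase it serves, Pcsk2, had 0 counts in the assigned cells, which allows up to 0.0961 CPM over all classes together. Within enteroendocrine-like cells, which held 2.08% of counts, a count of 0 allows a much higher level. Cpe, for carboxypeptidase E, on chromosome 8 (64592542 to 64693054, minus strand), averaged 447 ± 153 CPM and had a UMI in 43 of 54 cells, the most even of the 10: its 5 richest cells held 35.7% of its counts, against 89.7% for Scg5.

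Scgn encodes secretagogin, a calcium-binding sensor of endocrine cells, and lies on chromosome 13 (23953456 to 23991214, minus strand). It averaged 214 ± 147 CPM in the class (SD, n = 5 cultures), with 157 of 161 counts and a UMI in 20 of 54 cells. No stem-like, enterocyte-like or cluster 2 cell had a count, which allows at most 0.644 CPM. Cadps encodes CAPS1, which primes granules for fusion, and lies on chromosome 14 (12372563 to 12823079, minus strand). It averaged 47.3 ± 52.9 CPM with 38 of 40 counts in the class, and the other 2 counts were in 1 cell of cluster 9. Scgn overlaps an antisense gene, Scg3 overlaps Gm37871 and Pcsk1n overlaps Eras, each on the other strand, and Cadps overlaps several small genes. The labels do not say whether counting used the strand, so reads of such pairs may have been mixed.

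Outside the class, the next highest levels of the chromogranins were in cells that could not be named. Cluster 9 had 167 cells with a median of 5667 UMIs and was led by mitochondrial transcripts. It held 80 Chgb counts in 20 cells and 23 Chga counts in 13 cells. Its Chgb level was 74.2 ± 87.5 CPM (SD, n = 5 cultures), and its Pcsk1n level 10.9 ± 10.8 CPM. Cluster 8, with 79 cells and a median of 1344 UMIs, had a Chgb UMI in 13 cells (16.5%) and at most 2 counts of Chgb in any of them.

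The promoters of 3 of the genes share a motif and are shown for that reason. A full cAMP response element, TGACGTCA, the site of CREB family factors, was searched in RefSeq windows of 250 bases before to 50 after each start (GRCm38.p6, the mm10 assembly). It reads alike on both strands and does not overlap the other motifs searched. Of the 9 genes with a window, Chgb, Scg2 and Pcsk1 held it, against 1.79% of all 32851 windows. Its first base lay at -72 from the start in Chgb, -68 in Scg2 and -78 in Pcsk1. These RefSeq starts differ from those of the gene spans given above, so the Chgb stretch lies inside its gene's span and the other 2 reach into theirs. The 250 bases before each start follow, 5′ to 3′ on the gene's strand, with the element in capitals.
Chgb, chr2:132781392-132781641: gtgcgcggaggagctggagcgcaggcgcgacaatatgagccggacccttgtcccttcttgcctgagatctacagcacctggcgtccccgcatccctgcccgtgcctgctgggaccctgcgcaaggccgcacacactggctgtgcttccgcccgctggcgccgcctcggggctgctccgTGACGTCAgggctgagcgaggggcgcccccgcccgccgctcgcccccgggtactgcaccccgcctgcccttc
Scg2, chr1:79440027-79440276: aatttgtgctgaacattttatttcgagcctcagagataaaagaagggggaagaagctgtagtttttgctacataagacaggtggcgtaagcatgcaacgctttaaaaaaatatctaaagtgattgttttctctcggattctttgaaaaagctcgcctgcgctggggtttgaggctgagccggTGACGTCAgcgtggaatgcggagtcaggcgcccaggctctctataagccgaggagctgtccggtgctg
Pcsk1, chr13:75089607-75089856: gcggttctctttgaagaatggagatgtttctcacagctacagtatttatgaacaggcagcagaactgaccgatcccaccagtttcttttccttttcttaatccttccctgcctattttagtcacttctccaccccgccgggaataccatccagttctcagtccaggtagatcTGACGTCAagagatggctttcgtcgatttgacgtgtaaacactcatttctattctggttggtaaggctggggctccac

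The other motifs were rarer among the 10 genes or common everywhere. The E-box CAGCTG, on both strands, was in the windows of Chga and Chgb and in 16.3% of all windows. A half-site of the neuronal silencer REST, TTCAGCACC on either strand, was in the window of Scg2 and in 0.371% of all windows. The TATA letters TATAAA, on either strand, were in the window of Chga and in 13.6% of all windows. A match is only a match of letters. Cpe had no window in the table.

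Further granule and exocytosis genes had widely varying shares of their counts in the class. Of the 8 further genes of granule cargo and processing, 6 had at least 20 counts, with a median of 45.6% of counts in enteroendocrine-like cells. Resp18, a luminal granule protein, reached 98.3%. Ptprn2 and Ptprn, the granule membrane proteins phogrin and IA-2, had 72.7% and 50%, and Pam, which amidates peptide ends, 41.2%. Of 23 genes of neuroendocrine exocytosis, 18 had at least 20 counts, with a median of 28.3%. Among the highest were the synaptotagmin Syt13 (94.9%), the SNARE protein gene Snap25 (90.5%) and the scaffold gene Pclo (85.1%). Cadps2, the paralogue of Cadps, had 2.64%, and the small GTPase gene Rab3a 7.07%. Of 19 genes of general exocytosis, all had at least 20 counts and the median was 2.93%, close to that of all genes. Their highest, Sytl2, which tethers granules, had 8.59%, followed by Unc13b with 6.61%, the exocyst subunit gene Exoc5 with 4.94% and the syntaxin partner gene Stxbp2 with 4.42%. Of the more specialised genes, 2 of 6 of cargo and processing and 5 of 18 of neuroendocrine exocytosis were also at or under 8.59%.

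**Figure D2:**
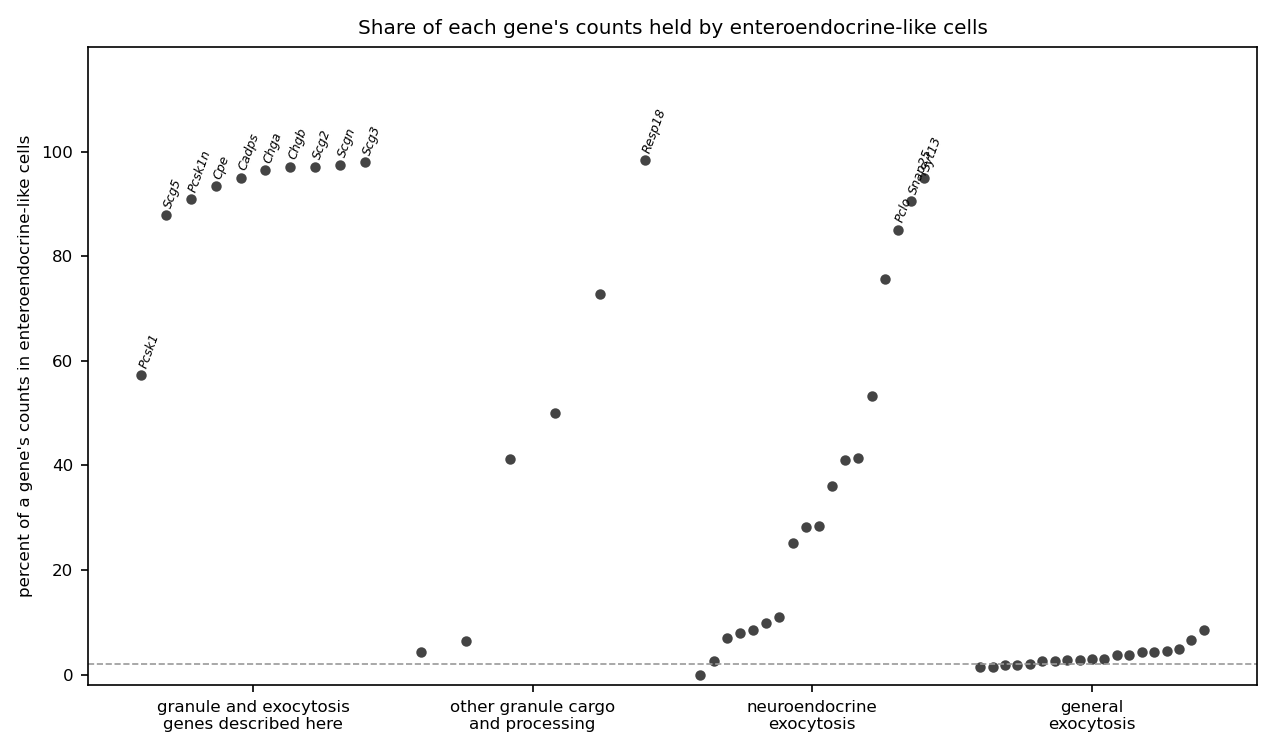
Percent of each gene's counts that lay in enteroendocrine-like cells, for the 10 genes and 3 further lists (genes with at least 20 counts), with a dashed line at the class's 2.08% of all counts. The 10 genes sit between 57.2% and 97.9%, and general exocytosis genes at or under 8.59%.

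Across the 40 sums of 8 classes by 5 cultures, the genes outside these lists whose level was most like the mean of the 10 were Pak3 (Pearson r = 0.967), Fev (0.955), Otulinl (0.946), Syp (0.943), Celf3 (0.936), Cryba2 (0.935), Runx1t1 (0.935) and Lrp11 (0.932), out of 11014 genes. Fev encodes a transcription factor of serotonergic lineages and Syp the vesicle protein synaptophysin. Fev was also among the markers that named the enteroendocrine-like class, so its likeness over sums of that class was partly built in. Sums of 1 class share a cell type, so the 40 points are not independent and r only ranks the genes.

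Within the class, the genes formed an order of nested detection. Every cell with a UMI of Scgn (20), Scg3 (19), Cadps (16) or Scg5 (10) also had Chga, and every cell with Scg2 (16) or Scg3 also had Chgb. Every cell with Scg2, Scg5 or Pcsk1n (19) also had Cpe. Of 45 Chga cells, 39 had Chgb and 39 had Cpe. All 10 genes were found together in 2 cells, and 4 cells had none. Deep cells and abundant genes give such nesting more readily, and these shares were not thinned for depth.

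By median, enteroendocrine-like cells of mutant cultures had fewer of the 10 genes. The median number with a UMI was 2, 4 and 4.5 per cell in the mutant cultures, against 6 and 6.5 in the control cultures. Median depth went the other way, with 12927, 9647 and 10181.5 UMIs per enteroendocrine-like cell in mutant cultures and 8943.5 and 7904 UMIs in control cultures. The 10 genes together took 1.01%, 1.01% and 0.528% of the UMIs of the class in the mutant cultures, and 2.10% and 0.724% in the control cultures, so the groups overlapped in this sum. A single cell held 53.5%, 68.3% and 45.3% of those UMIs in the mutant cultures, and 27.5% and 18.3% in the control cultures.

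**Figure D3:**
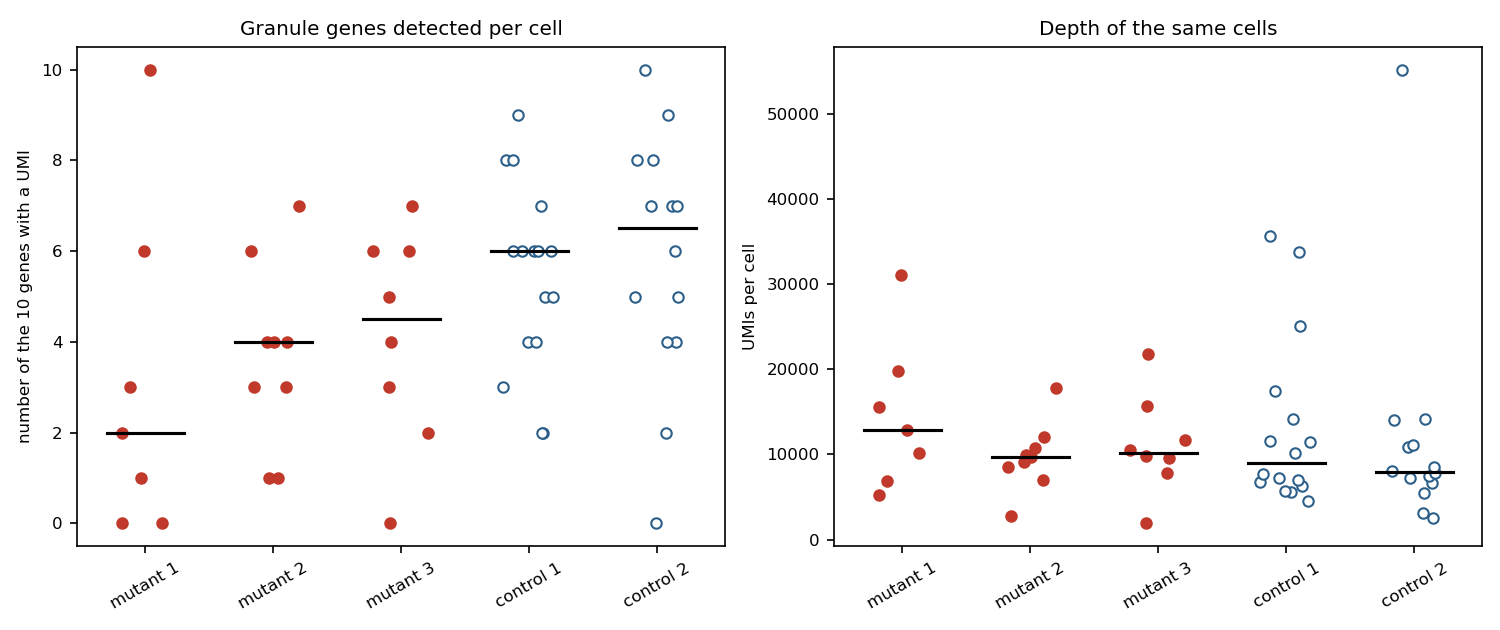
Left, number of the 10 genes with at least 1 UMI in each enteroendocrine-like cell (points) by culture, with the median as a line; right, UMIs of each of the same cells. Medians were 2, 4 and 4.5 genes in mutant cultures and 6 and 6.5 in control cultures, while the mutant cells were the deeper by median.

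To set detection at 1 depth, 48 cells were thinned to 5321 UMIs each and 6 shallower cells were left out. Chga then had a UMI in 50%, 75.0% and 71.4% of the cells of the mutant cultures, and in 100% and 91.7% of those of the control cultures. Scg3 was found in 0 of 6, 1 of 8 and 1 of 7 mutant cells, and in 7 of 15 and 6 of 12 control cells. Cadps was found in 1 of 6, 0 of 8 and 1 of 7 mutant cells, and in 5 of 15 and 5 of 12 control cells. For all 3 genes no mutant culture reached either control culture. The mean share for Chgb was 48.2% ± 9.94 in mutant cultures (SD, n = 3) and 80.8% ± 8.25 in control cultures (SD, n = 2), again with no overlap. How many of all genes separate the groups in this way was not counted. The thinning was run 1 time, with hashtags called by HTODemux. It was not repeated with hashtags called by MULTIseqDemux, which put 6 enteroendocrine-like cells in the second control culture, against 14.

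For Pcsk1 the shares were 47.6% ± 4.12 in mutant cultures and 46.7% ± 18.9 in control cultures, and for Scg5 19.8% ± 21.6 in mutant cultures and 15.8% ± 13 in control cultures, so mutant means stood higher for these and lower for the other 8 genes. Placing the 3 mutant labels on the 5 cultures in all 10 ways, a two-sided exact permutation test gave p = 0.1 for Chga, Chgb, Scg3 and Cadps, which is the smallest p it allows (n = 3 and 2), and Benjamini-Hochberg adjustment over the 10 genes gave 0.25. After the same thinning, stem-like cells had a UMI of Chga or Chgb in 3 of 339 cells each (0.885%) and of Scg3 or Cadps in none.

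The comparison of mutant with control cultures was first made on sums over all cells, in which fewer endocrine cells and less RNA per cell cannot be told apart. None of the 10 genes passed edgeR's quasi-likelihood test at an adjusted p of 0.05, against 0.00904% of the 11061 genes tested, which is 1 gene, the hormone gene Pyy. Its adjusted p was 0.9997 for every one of the 10. DESeq2 called none of the 10 either, against 0.0398% of its genes. At an unadjusted p under 0.05, edgeR counted 8 of the 10, all lower in mutant cultures, where 1.84% of all genes tested were lower at that level, and DESeq2 counted 6, against 0.969% of its genes in either direction. For 9 of 10 genes the log2 fold change was below zero, against 48.9% of all genes. The median was -1.83 for the 10 genes and 0.00 for all genes. For 7 genes both control cultures stood above all 3 mutant cultures, against 7.77% of all genes tested. Scg3 and Cadps passed the filter on low counts only through the control cultures, and Scg2 through both of these and 1 mutant culture, so these counts over the genes tested are a description. With hashtags called by MULTIseqDemux, Scg3 and Cadps did not pass the filter on low counts, and the other 8 of the 10 were tested. Of these 8, 6 were below zero, 4 had an unadjusted edgeR p under 0.05 and the median was -0.81. Of the 10946 genes tested in that setting, 50.2% were below zero and 327 had such a p in either direction. Their median was -0.0009. Cultures are separate biological replicates per the labels, and these tests measure the spread between them.

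Among the granins, Chgb was at 122, 87.4 and 51.0 CPM in mutant cultures and at 464 and 87.7 CPM in control cultures. The first control culture thus stood far above the others, and the second between the mutant values. The log2 fold change was -1.68 ± 0.63 (SE), and without that first control culture it was 0.00. It was -0.20 with MULTIseqDemux, and -2.77 without the cell richest in the 10 genes of each culture. Chga was at 28.5, 45.7 and 47.7 CPM in mutant cultures and at 109 and 33.7 CPM in control cultures, with a log2 fold change of -0.84 ± 0.46, or 0.28 without the first control culture. With all cells kept, the direction of both chromogranins thus rested on that culture. The cell richest in Chgb of each culture was then left out. Chgb was at 38.8, 22.8 and 27.0 CPM in mutant cultures and at 329 and 66.9 CPM in control cultures, without overlap. Chga still overlapped without the cell richest in it of each culture. How many of all genes separate so after such removal was not counted. Scg2 was at 2.25, 0.917 and 0 CPM in mutant cultures and at 5.24 and 6.71 CPM in control cultures (log2 fold change -2.36 ± 0.64). Scg3 was at 0.321, 0.612 and 0.715 CPM in mutant cultures and at 2.48 and 3.00 CPM in control cultures (-2.32 ± 0.43). For the secretogranins the groups did not overlap. One cell of the first control culture held 33 of its 38 Scg2 counts, and the other 5 counts come to 0.691 CPM, below the first 2 mutant cultures as they stood. Without the cell richest in Scg2 of each culture, Scg2 was at 0.321, 0.459 and 0 CPM in mutant cultures and at 0.691 and 4.29 CPM in control cultures.

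Of the processing genes, Pcsk1n was at 2.08, 0.153 and 3.82 CPM in mutant cultures and at 9.24 and 9.71 CPM in control cultures (log2 fold change -2.37 ± 0.61). Cpe was at 4.81, 7.80 and 9.30 CPM in mutant cultures and at 13.1 and 14.7 CPM in control cultures (-0.96 ± 0.25, or -0.46 with MULTIseqDemux). Pcsk1 was at 6.41, 1.99 and 4.05 CPM in mutant cultures and at 7.44 and 9.999 CPM in control cultures (-1.08 ± 0.40). All mutant cultures were under both control cultures for these 3. For Pcsk1 the log2 fold change was -1.47 in cells outside the enteroendocrine-like class and -0.14 within it. Scg5 was the only one of the 10 with a value above zero, 0.72 ± 1.28, from 5.77, 0 and 1.91 CPM in mutant cultures and 0.138 and 3.00 CPM in control cultures. One cell of the first mutant culture held 34 of its 36 counts, and without that culture the value was -0.96. Without the first control culture it was -0.21.

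The 2 genes of release did not overlap between groups either. Scgn was at 1.44, 2.14 and 3.34 CPM in mutant cultures and at 6.75 and 10.7 CPM in control cultures (log2 fold change -1.97 ± 0.36). Cadps had 1, 1 and 2 counts in mutant cultures and 14 and 22 counts in control cultures (-3.31 ± 0.57). Its mean was 0.263 ± 0.185 CPM in mutant cultures (SD, n = 3) and 2.54 ± 0.857 CPM in control cultures (SD, n = 2). Pooled by group, the mutant level was 0.0933 of the control level (95% interval 0.0241 to 0.260, for counting error only).

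The enteroendocrine-like class was somewhat smaller in mutant cultures, with 2.48%, 3.20% and 4.06% of cells against 4.95% and 4.01% in control cultures. The mean was 3.25% ± 0.790 in mutant cultures (SD, n = 3) and 4.48% ± 0.666 in control cultures (SD, n = 2). The third mutant culture lay above the second control culture, and the two-sided exact permutation test gave p = 0.3, with 0.1 the smallest it allows. With hashtags called by MULTIseqDemux the difference was -0.06 percentage points, against -1.23 by HTODemux.

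Levels were then compared within the class. Of the 10 genes, 8 passed the filter on low counts, and Scg3 and Cadps did not. None of the 8 passed edgeR's test at an adjusted p of 0.05, against 0.0512% of 1954 genes, again Pyy alone. A single cell held 927 of the 929 Pyy counts of the class in the first control culture, and another held 895 of 925 in the second. At an unadjusted p under 0.05 edgeR counted 3 of the 8 granule genes, Scgn, Scg2 and Pcsk1n, all lower in mutant cultures, against 2.2% of the genes tested. DESeq2 called none of the 10, against 0.00813% of its genes, and counted 4 at an unadjusted p under 0.05, against 0.496% of its genes. The log2 fold change was below zero for 7 of 8, against 48.3% of genes, and the groups did not overlap, lower in mutant cultures, for 3 of 8, against 9.42%. With no filter on low counts, 4 genes passed edgeR's test, all lower in mutant cultures: Pcsk1n (adjusted p = 0.000108), Scgn (0.0292), Cadps (0.0293) and Scg2 (0.0304). In that fit 27 genes of 12295 passed as lower and 8 as higher, 58.1% of genes were below zero and the median log2 fold change was -0.18. In the filtered fit these last values were 48.3% and 0.02. The SE of Pcsk1n was 0.40 with no filter and 0.61 with it, at log2 fold changes of -2.13 and -2.06.

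For Scg2 and Pcsk1n both control cultures stood above all 3 mutant cultures, and neither gene passed edgeR's test. Scg2 was at 138, 68.5 and 0 CPM in enteroendocrine-like cells of mutant cultures, and at 181 and 271 CPM in those of control cultures. The value of 0 allows up to 33.7 CPM. Its log2 fold change was -1.65 ± 0.67 with an edgeR adjusted p of 0.948. Without the cell richest in Scg2 of each culture the groups overlapped, at 22.5, 37.9 and 0 CPM in mutant cultures and 26.0 and 182 CPM in control cultures. Pcsk1n was at 118.01, 0 and 124 CPM in mutant cultures and at 314 and 376 CPM in control cultures, and its 0 allows up to 34.2 CPM. Its log2 fold change was -2.06 ± 0.61 (edgeR adjusted p = 0.717).

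Scgn, the calcium sensor, was at 88.5, 160 and 135 CPM in mutant cultures and at 224 and 462 CPM in control cultures. Its log2 fold change was -1.43 ± 0.40 (edgeR adjusted p = 0.717). With only 1 control culture left, it was -1.90 without the first control culture and -0.81 without the second. In the mutant cultures 1 and 3 a single cell held all Scgn counts of the class. Scg3 had 2, 3 and 3 counts in mutant cultures and 18 and 21 in control cultures, a pooled ratio of 0.275 (95% interval for counting error 0.111 to 0.596). Cadps had 1, 1 and 2 counts in mutant cultures and 12 and 22 in control cultures, a ratio of 0.157 (0.0406 to 0.442). The groups did not overlap for either gene.

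With all cells of the class kept, the chromogranins, Cpe and Pcsk1 overlapped between groups. Chga was at 1652, 3218 and 2136 CPM in mutant cultures and at 3736 and 1368 CPM in control cultures, a log2 fold change of -0.14 ± 0.42 (edgeR adjusted p = 0.975). Chgb was at 7278, 6002 and 2226 CPM in mutant cultures and at 15791 and 3630 CPM in control cultures, with a log2 fold change of -0.90 ± 0.59 (edgeR adjusted p = 0.948). Without the first control culture these became 0.72 for Chga and 0.48 for Chgb, and without the cell richest in the 10 genes of each culture Chgb was at -2.10. Cpe was at 216, 559 and 427 CPM in mutant cultures and at 424 and 610 CPM in control cultures (-0.39 ± 0.36). Pcsk1 was at 275, 91.3 and 101.2 CPM in mutant cultures and at 195 and 154 CPM in control cultures (-0.14 ± 0.47). It was above zero without mutant culture 2 (0.15), mutant culture 3 (0.11) or control culture 1 (0.02). Without the cell richest in Pcsk1 of each culture, it was at 22.5, 75.8 and 64.8 CPM in mutant cultures. The control cultures were then at 145 and 108 CPM, without overlap. Chga, Chgb and Cpe still overlapped without the cell richest in each. Scg5 was at 334, 0 and 78.7 CPM in mutant cultures and at 4.76 and 98.6 CPM in control cultures (1.57 ± 1.19). The one Scg5-rich cell held all 34 counts of the first mutant culture. Without that culture Scg5 no longer passed the filter on low counts, and without the first control culture its value was 0.51.

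**Figure D4:**
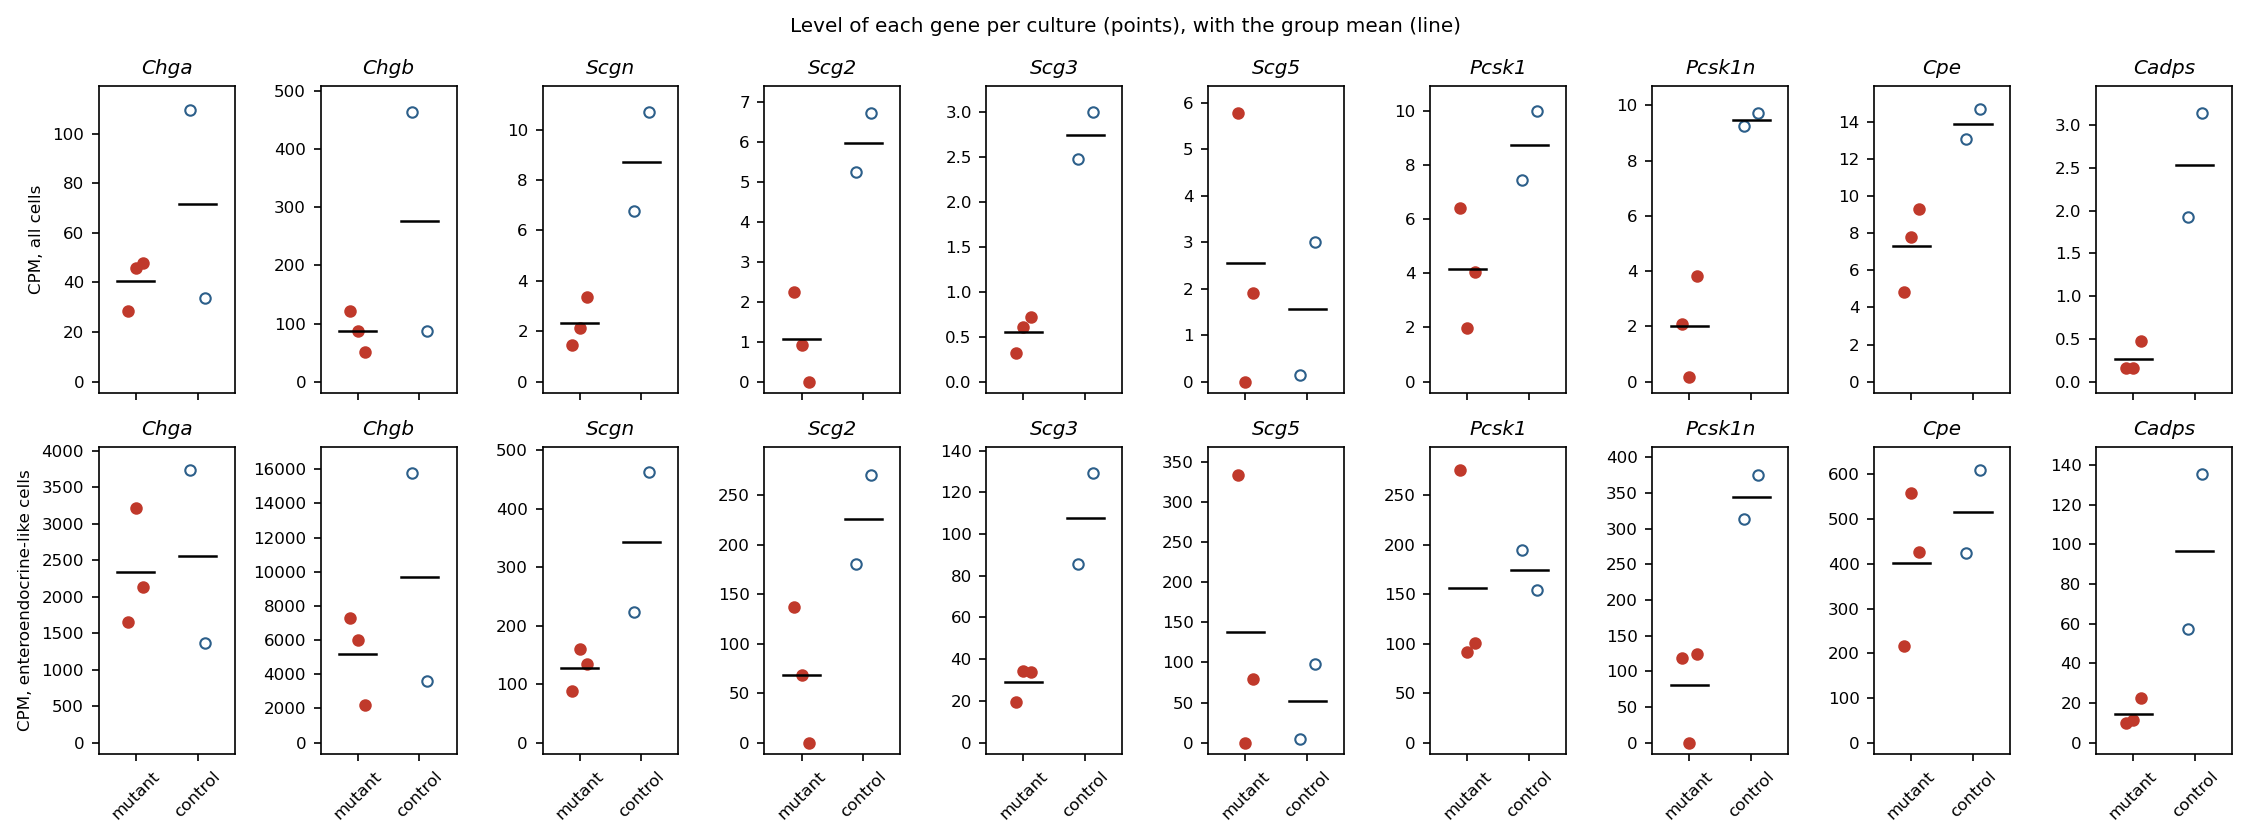
CPM of each gene in each culture (points) with the group mean (line), mutant cultures left in red and control cultures right in blue; the upper row sums all cells and the lower row the enteroendocrine-like cells. Scgn, Scg2, Scg3, Pcsk1n and Cadps separate the groups in both rows, whereas Chga and Chgb overlap in both. Of all genes tested, 7.77% separated so, lower in mutant cultures, over all cells and 9.42% in the class. In the lower row Scg3 and Cadps did not pass the filter on low counts, and Scg2 overlapped without the cell richest in it of each culture. After the same removal for their own richest cells, Chgb did not overlap in the upper row, nor Pcsk1 in the lower row.

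The further lists showed no call either. Over all cells, 5 of 5 tested genes of granule cargo and processing, 10 of 13 of neuroendocrine exocytosis and 6 of 19 of general exocytosis had a log2 fold change below zero, against 48.9% of all genes, and none passed edgeR's test. The smallest unadjusted p values belonged to Rims2 and Pclo, scaffold genes of the release site. Rims2 averaged 2.00 CPM in mutant cultures and 4.28 CPM in control cultures (log2 fold change -1.09 ± 0.29), and Pclo averaged 2.02 CPM in mutant cultures and 3.80 CPM in control cultures (-0.89 ± 0.30). Resp18 averaged 2.27 CPM in mutant cultures and 5.69 CPM in control cultures (-1.30 ± 1.06). Nucb2, for a secreted calcium-binding protein, averaged 4.36 CPM in mutant cultures and 5.56 CPM in control cultures (-0.32 ± 0.34). Of the general genes, Vamp8, a SNARE of exocrine and endosomal fusion, averaged 146 CPM in mutant cultures and 132 CPM in control cultures (0.14 ± 0.09). Rab27b, a granule GTPase, averaged 11.7 CPM in mutant cultures and 13.9 CPM in control cultures (-0.27 ± 0.18). Within enteroendocrine-like cells 9 of the 50 passed the filter and none passed the test. The values were -0.84 (SE 1.029) for Resp18, -0.22 ± 0.47 for Ptprn2, -0.52 ± 0.35 for Pclo, -0.27 ± 0.36 for Rab3d, 0.83 ± 0.42 for Stxbp2 and 0.25 ± 0.30 for Vamp8.

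The class was also divided by the state of its cells. Neurog3, the transcription factor that starts the endocrine lineage, had a UMI in 32 of 54 cells. Tph1, the enzyme that makes serotonin in enterochromaffin cells, had at least 3 UMIs in 8 of 54 cells, 1, 0 and 1 in the mutant cultures and 4 and 2 in the control cultures. These are descriptions over few cells, with no test.

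In the pooled cells, 8 of the 10 genes were at a lower level with Neurog3 than without. Scg5 was at 14.9 CPM with Neurog3 and 209 CPM without, where 1 cell held 34 of its 52 counts, and leaving that cell out gave 76.2 CPM without Neurog3. Scg2 was at 54.8 CPM with it and 321 CPM without, or 203 CPM without once its richest cell was left out. Pcsk1 was at 94.6 CPM with it and 293 CPM without, and Scg3 at 47.3 CPM with it and 112 CPM without. Cpe was at 316 CPM with it and 683 CPM without, and Scgn at 182 CPM with it and 337 CPM without. Chga was at 2067 CPM with it and 3281 CPM without, and Pcsk1n at 199 CPM with it and 281 CPM without, and each was lower in 3 of 5 cultures. Scg2, Scg3, Scg5, Pcsk1, Cpe and Scgn were each lower with Neurog3 in 4 of 5 cultures. Some of these differences rested on very few counts. In control culture 1, Scg5 had 0 counts with Neurog3, which allows up to 23.1 CPM, and 1 count without, or 12.5 CPM. Scg3 had 0 and 2 counts in mutant culture 1, and Scg2 had 3 and 3 in mutant culture 2. The share of all genes that were lower with Neurog3 was not counted. Chgb was at 8533 CPM with it and 7807 CPM without, and Cadps at 69.7 CPM with it and 40.2 CPM without, and each was lower with Neurog3 in 3 cultures and higher in 2. With its richest cell left out, Chgb was at 6645 CPM with Neurog3, which turned its direction, and Pcsk1n at 129 CPM. Median depth was 10155.5 UMIs with Neurog3 and 8480 UMIs without.

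Tph1 cells had high levels of the chromogranins and few counts of the sensor. Chgb was at 31409 CPM in Tph1 cells and 3902 CPM in the other cells, 8.05-fold higher, and was higher in each of the 4 cultures that had both. The 8 Tph1 cells held 60.2% of all Chgb counts of the class and 43.5% of those of Chga. In the first control culture, the one with the high Chgb level, 4 Tph1 cells of 16 held 72.9% of Chgb counts. In the second control culture 2 of 14 cells held 32.9%. Scgn was at 19.4 CPM in Tph1 cells, from 2 counts, and at 283 CPM in the others, from 155 counts. In 3 of the 4 cultures with both, Tph1 cells had no Scgn count, which allows up to 96.7, 382 and 247 CPM against 127, 148 and 499.6 CPM in the other cells. Pcsk1 was at 77.7 CPM in Tph1 cells, from 8 counts, and at 188 CPM in the others, and was lower in 4 of 4 cultures. In mutant culture 3 and control culture 2 the Tph1 cells had no Pcsk1 count. That allows up to 382 and 247 CPM, against 111 and 167 CPM in the other cells. In mutant culture 1 a single cell held 26 of the 27 Pcsk1 counts of the other cells. Chga was 4.09-fold higher in the pooled cells but higher in only 2 of 4 cultures. Median depth was 6451 UMIs in Tph1 cells and 10055.5 UMIs in the others. The part of this uneven number of Tph1 cells in the mutant and control levels of Chgb was not tested.

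**Figure D5:**
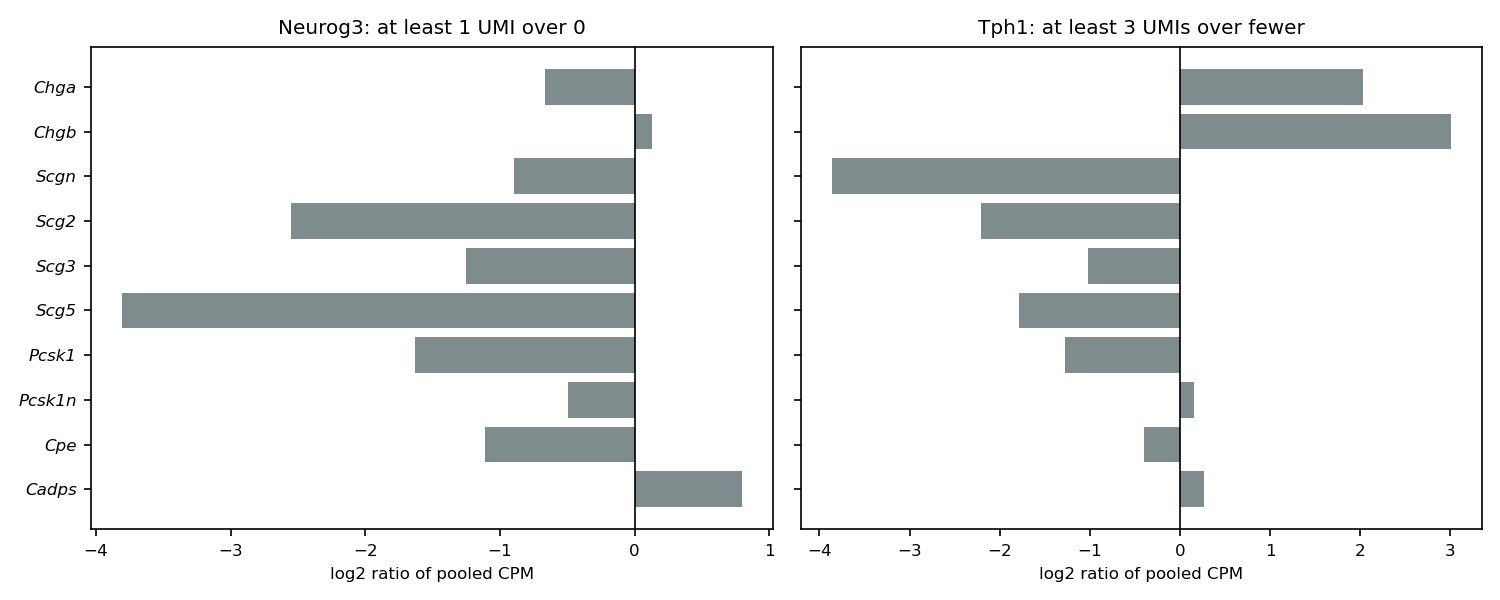
Log2 ratio of pooled CPM of each gene between enteroendocrine-like cells with and without the marker, left for Neurog3 (32 of 54 cells with at least 1 UMI) and right for Tph1 (8 of 54 cells with at least 3 UMIs). The low bar of Scg5 on the left rests on 1 cell that held 34 of its 52 counts without Neurog3, and on the right Chgb and Chga are highest and Scgn lowest.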

How the data were processed

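A pool of sorted organoid cells was sequenced as 1 RNA and 1 hashtag library. The deposited hashtag values are counts per barcode, and the deposited RNA values are estimated counts per gene and cell, of which 95.6% above 0 are whole. Both were raw. The submitters' processing notes name mm10, Salmon 1.4.0, alevin, Seurat 4.3.0 and Cell Ranger 6.1.0, without saying what each did.

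Of 3409 barcodes, those with under 500 genes or over 25% mitochondrial counts were left out. HTODemux (Seurat 5.3.0, quantile 0.99) assigned cultures. The 239 barcodes with several hashtags were dropped as doublets, and doublets within 1 culture were not removed. The 1054 barcodes with no hashtag entered no comparison. Cells were clustered in scanpy 1.11.5 (2000 variable genes, 30 components, 15 neighbours, resolution 0.8). A class was named from at least 3 markers, and clusters of very low depth stayed unnamed. Estimated counts were summed per culture, rounded and tested with edgeR 4.0.16 (TMM, filterByExpr, quasi-likelihood, Benjamini-Hochberg over all genes tested), with DESeq2 1.42.0 as an alternative. The test was tried on simulated data. CPM is counts per 1000000 UMIs of the cells summed. The SE of a log2 fold change was derived from edgeR's test, as its size over the square root of the F statistic. DESeq2's own SE differed, at 1.22 against 0.61 for Pcsk1n over all cells and 0.39 against 0.42 for Chga within the class. Intervals and limits (3 counts for a count of 0) cover counting error only. The main settings, cultures left out, MULTIseqDemux, other clusterings and cell subsets were compared.

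The 10 genes were given by name. The 3 further lists and the marker lists, and which genes of them are named (largest share or smallest p, and likeness to the 10), were chosen with earlier results of these data known. One gene so named is not reported here. Gene positions are from GENCODE on mm10 and promoters from RefSeq.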

Additional observations from a re-analysis of the deposited data

Results flagged for a closer look

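The barcodes that carried no hashtag entered no comparison, yet 30 of those 1054 fell in an enteroendocrine-like cluster when all barcodes were clustered, and they held counts of the granule genes above the limit that a count of 0 allows. Those 30 cells held 1461 counts of Chgb, 579 of Chga, 100 of Cpe, 44 of Scgn, 36 of Pcsk1n, 31 of Pcsk1, 17 of Scg2, 13 of Scg3 and 6 of Cadps. They held 93.7% of the Chgb counts of these barcodes and 94.0% of the Chga counts, but 68.0% of those of Scg2 and 67.4% of those of Pcsk1. Scg5 had 2 counts there, under that limit. The culture of these cells is not known.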

How the results depend on the processing

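Of 210 recomputed log2 fold changes of the 10 genes, 191 kept their direction and their side of the threshold, 4 passed it only under an alternative, and 15 changed sign. Over all cells none of the 10 genes passed in any setting run. Within enteroendocrine-like cells 4 genes passed with no filter on low counts, where 27 of 12295 genes passed as lower and 8 as higher. When a mutant culture was left out, 0 of the granule genes passed. With only 1 control culture left there is no spread between control cultures, so calls are not given. The log2 fold change of Scgn was then -1.90 without the first control culture and -0.81 without the second. Chga over all cells was 0.21 with MULTIseqDemux, 0.41 in cells outside the class and -1.47 to 0.28 with a culture left out. Within the class it was 0.62 with MULTIseqDemux, 0.024 in cells of at least 5000 UMIs and -0.68 to 0.72 with a culture left out. Chgb was -2.45 to 0.00298 over all cells and -1.60 to 0.48 within the class with a culture left out, and 0.16 within the class with MULTIseqDemux. Scg5 over all cells was -0.96 to 3.999 and Pcsk1 within the class -0.89 to 0.15 with a culture left out. MULTIseqDemux put 6 enteroendocrine-like cells in the second control culture, against 14. The cause of these changes was not tested. Where 1 control culture was left, it was assumed to vary like the mutant cultures. Removing the cell richest in the 10 genes from each culture, or the cell richest in a single gene, cells outside the class and cells of at least 5000 UMIs were alternatives chosen after seeing the data. No paired analysis was possible because the labels give the cultures no numbers that pair them across groups. Depth limits the class: 54 cells, and as few as 7 in a culture.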
